A study of Mus musculus with 16 samples.

Results

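At 12 h after cecal ligation and puncture, neutrophils of wild-type (WT) mice were compared with those of untreated wild-type mice in the blood and in the lung, and the change in the lung was set against the change in the blood. The comparison rests on 12 of the 24 deposited count libraries, which belong to 8 of the 16 samples of the series, chosen as all libraries of the WT genotype. The groups were untreated blood neutrophils (0h), blood neutrophils 12 h after cecal ligation and puncture (CLP), untreated lung neutrophils (0h) and lung neutrophils 12 h after CLP, each with 3 libraries. CLP ties off and punctures the cecum so that gut bacteria leak into the abdomen, a standard model of polymicrobial sepsis. The mice that received CLP were males of 8-12 weeks of age, the genotype of all groups was given as WT, and the neutrophils were sorted as CD45+ Ly6G+ CD11b+ cells. The mice at 0h were labelled as untreated and not as sham-operated, so effects of surgery and anaesthesia cannot be told apart from those of the infection.

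Neutrophils are made in the bone marrow, released into the blood and held in large numbers in the narrow capillaries of the lung, from which they can enter the tissue. In sepsis the marrow releases many young cells, which still carry transcripts of granule proteins made late in their development, while neutrophils that meet bacteria or inflamed tissue switch on immediate early genes, NF-kB feedback genes and cytokines. Which of these changes are shared by circulating and lung neutrophils, and which differ between the sites, is the question that the interaction term addresses: the 12 h minus 0 h change in the lung minus that in the blood, on the log2 scale.

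The libraries did not form an even set. Sample 1 of each group held 2 libraries, named here 1a and 1b, and sample 2 held 1, named 2. Library totals ran from 5753476 to 29433699 counts. The 4 libraries 1b had 33962 to 38844 genes with counts, against 17132 to 27484 in the 8 others, and the first principal component, with 61.4% of the variance, separated them from the rest. Within a group, libraries 1a and 1b lay much further apart than sampling noise allows, and each was kept as a replicate. The third principal component placed lung libraries 1a and 2 after CLP at -114 and -107 and lung library 1b after CLP at 15.6, beside the others. Results that turn on the libraries 1b are therefore given with and without them. The labels give 2 samples per group, so the 3 libraries of a group do not stand for 3 separate samples, and nothing states that they came from separate mice; p-values therefore measure the spread between these libraries, which may be technical in part. Lung library 1b after CLP lay nearer to the blood libraries after CLP than to the others of its group for many of the genes described here, whereas its lung structural markers summed to 498.7 CPM, as in the other lung libraries after CLP (259 and 567 CPM) and above the blood after CLP (83.0 to 110.3 CPM). Its values thus ran with its label for some genes and not for others, and the interaction and the shared counts of the 12 libraries rest on it. What set the libraries 1b apart was not tested.

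Of 23497 genes tested in 1 fit of the 12 libraries, 1416 changed in the blood (6.03%) and 1324 in the lung (5.63%), at an adjusted p under 0.05 by edgeR's quasi-likelihood test and a change of more than 2-fold. In the blood 759 rose and 657 fell, and in the lung 555 rose and 769 fell. With another scaling of the libraries (RLE), which moved the median lung change of all genes from -0.06 to 0.14, the lung split turned to 874 that rose and 595 that fell. Of the 2034 genes called at either site, 706 (3.0% of those tested) changed in the same direction at both, 335 that rose and 371 that fell, and 634 of them were protein-coding. None changed in opposite directions. A further 710 genes passed in the blood alone and 618 in the lung alone, which by itself does not show a difference between sites. No gene passed the test of the interaction, whose smallest adjusted p was 0.876 in edgeR. At an unadjusted p under 0.05 were 1290 genes (5.49%), 579 with the lung change above the blood change and 711 below, where a threshold of 0.05 passes 5% of tests when nothing differs. DESeq2 called 98 genes on the same 12 libraries (0.417%), 65 above (0.277%) and 33 below (0.14%). With the library number as a block, 2780 genes changed in the blood (11.8%; 5.6% rose and 6.23% fell), 2221 in the lung (9.45%; 4.13% rose and 5.32% fell) and 1312 in both (5.58%), and the interaction again had 0 calls, with 2980 genes (12.7%) at an unadjusted p under 0.05. With the 2 libraries of sample 1 summed, which leaves 2 replicates per group, 1626 genes changed in the blood (1042 rose and 584 fell), 1762 in the lung (1063 rose and 699 fell) and 847 in both, and the interaction had 0 calls, with 1797 genes (8.01%) at an unadjusted p under 0.05. Single libraries moved the counts widely: leaving out 1 of the 12 gave 158 (without blood library 1a after CLP) to 2227 calls in the blood, 49 (without lung library 2 at 0h) to 2483 in the lung and 47 to 1102 at both sites in the same direction, with each highest count without lung library 1b after CLP. That fit called 8.6% of 25897 genes in the blood, 9.59% in the lung and 4.26% at both sites in the same direction, and 18 genes (0.0695%) in opposite directions.

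How alike the changes looked depended on how strongly genes were expressed. Across all 23497 genes the lung and blood changes had a Pearson correlation of 0.20 and a Spearman correlation of 0.15, with the same sign in 62.3% of genes. Among the 6533 genes with a mean of at least 10 CPM (counts scaled to a common library size, adjusted for composition) the Pearson correlation was 0.76, and among the 1614 genes with at least 100 CPM it was 0.80. In the 9847 genes under 1 CPM it was -0.10, with a median blood change of -1.87 against -0.08 in the lung. In the genes with at least 10 CPM the medians were 0.08 and -0.01. Their median lung minus blood change was -0.12, against 0.56 over all genes. The medians over all genes given below for comparison thus include many genes under 1 CPM. The 2034 genes called in either site correlated at 0.85, with 96.6% of signs equal, though the calls favour large changes. These values are across genes, which share libraries and are not independent replicates. Without lung library 1b after CLP the correlation over all genes was 0.64, without lung library 1b at 0h it was -0.36, and with libraries 1a and 2 alone it was 0.50 over 15750 genes.

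**Figure D1:**
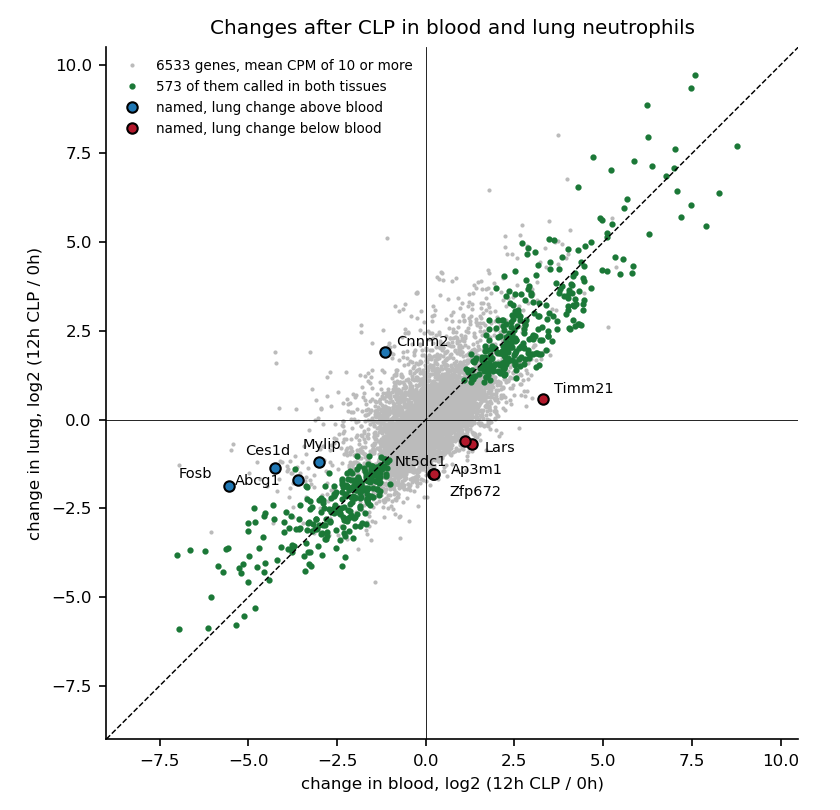
Change after CLP in blood (x axis) and lung (y axis) neutrophils, both as log2 of 12h CLP over 0h, for the 6533 genes with a mean CPM of at least 10; the dashed line marks equal changes. Green points, the 573 genes called at both sites, lie along that line, and large points are the 10 named genes, none of them called for the interaction, which were added whatever their level (Ces1d and Timm21 are under 10 CPM).

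The genes with the largest shared rise encode a lipase, acute-phase proteins, a signalling kinase and the inducible nitric oxide synthase. Lipg, a phospholipase of lipoproteins, stood at 1.04, 2.23 and 0.868 CPM in blood libraries 1a, 1b and 2 at 0h and at 475, 477 and 784 CPM after CLP. In the lung the same gene went from 0.956, 2.42 and 2.06 CPM to 597, 266 and 279.7 CPM. All 6 libraries after CLP thus lay far above every library at 0h. The log2 changes were 8.78 ± 0.66 (SE) in the blood and 7.72 ± 0.63 in the lung (edgeR adjusted p = 1.1e-04 and 6.4e-04).

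Saa3, an acute-phase serum amyloid protein, was near 0 before CLP, with 1.42, 0.780 and 0.552 CPM in the blood and 0.478, 0.384 and 1.26 CPM in the lung. After CLP it held 292, 21.7 and 226 CPM in the blood and 1235, 173 and 410.4 CPM in the lung. Library 1b was the lowest of each group after CLP, and still far above the libraries at 0h. Orm1, the acute-phase orosomucoid, moved alike, with log2 changes of 7.49 in the blood and 9.35 in the lung. For both genes the lung change was the larger by estimate, by 2.14 (95% interval -0.74 to 5.01) and 1.86 (-1.0 to 4.72) on the log2 scale, and neither interval left out 0. Blood changes were 8.36 and 8.42 without blood library 1a at 0h, and lung changes ran from 8.78 to 10.8 for Saa3 and 8.62 to 10.04 for Orm1, with the lowest without lung library 1a after CLP and the highest without lung library 2 at 0h.

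Ikbke, a kinase of the IKK family that acts in NF-kB and interferon signalling, rose from 4.17, 2.34 and 3.75 CPM to 554, 47.4 and 740.2 CPM in the blood. Lung libraries rose from 7.46, 3.68 and 8.53 CPM to 2109, 319 and 1486 CPM. Ggt1, which breaks down extracellular glutathione, and Nos2, the inducible nitric oxide synthase, had fitted changes of 6.98 and 7.10 for Ggt1 and 6.77 and 6.87 for Nos2 in the blood and the lung. Lung libraries of Ggt1 after CLP held 118, 465 and 99.5 CPM, and without library 1b, the high one, its lung change was 5.99. Without blood library 1b at 0h the blood change of Nos2 was 8.09, and without lung libraries 1b at 0h or 2 after CLP its lung change was 7.58 or 7.48. The interval of the difference for Nos2 ran from -2.19 to 2.40, so a difference of several-fold in either direction is not shut out.

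Among the genes with the largest shared fall, Cd101, a surface protein of mature mouse neutrophils, fell from 1056, 421 and 579.6 CPM to 3.45, 5.09 and 7.96 CPM in the blood. Lung libraries fell from 702, 594 and 532 CPM to 6.06, 17.6 and 7.09 CPM. Every library after CLP lay below every library at 0h, with no overlap. The log2 changes were -6.96 ± 0.63 and -5.90 ± 0.60 (edgeR adjusted p = 2.4e-04 and 7.7e-04). Eef2k, the kinase that slows translation by acting on elongation factor 2, fell, with log2 values of -5.13 and -5.53. Amz1, a metallopeptidase, changed by -6.05 and -4.99, and Abcg3, an ABC transporter, by -5.34 and -5.79. Gad1-ps, a processed pseudogene whose reads may be shared with its parent gene, changed by -6.15 and -5.86. Prss2, a trypsin gene with 4 counts in each group after CLP, changed by -5.29 and -5.33 and belongs to a family of near-identical copies, so its value is uncertain; its call in the blood was lost in 8 of the alternatives, all of them with 1 library left out, and its call in the lung in 9, with lung values from -4.69 (without lung library 1a after CLP) to -6.29 (without lung library 2 after CLP).

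Lung library 1b after CLP set the size of several of these falls. Lung libraries of Abcg3 after CLP held 0.386, 3.35 and 0.151 CPM and those of Eef2k 0.496, 4.91 and 0.503 CPM, with library 1b the highest in each. Without it the lung changes were -8.01 for Abcg3, -7.51 for Eef2k, -6.59 for Cd101 and -6.50 for Gad1-ps. In libraries 1a and 2 alone the interaction of Abcg3 was -2.22 and was called, and that of Eef2k was -1.94 and was not (edgeR adjusted p = 0.048 and 0.13). In the blood, the change of Cd101 was -6.30 without library 1a at 0h, that of Eef2k was -4.53 and no longer called without library 1a after CLP, and that of Amz1 was -5.40 and -6.77 without libraries 1a and 1b after CLP. Calls were also lost for Abcg3 in the blood without blood libraries 1a or 2 after CLP, for Abcg3 in the lung without lung libraries 2 at 0h or 1a after CLP, for Eef2k in the lung without lung library 1a after CLP and, among the genes that rose, for Ikbke in the lung without lung library 2 at 0h. With all 8 groups of the series in 1 fit, calls were lost for Saa3 in the blood and for Ikbke and Nos2 in the lung (edgeR adjusted p = 0.0542, 0.0544 and 0.0536).

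**Figure D2:**
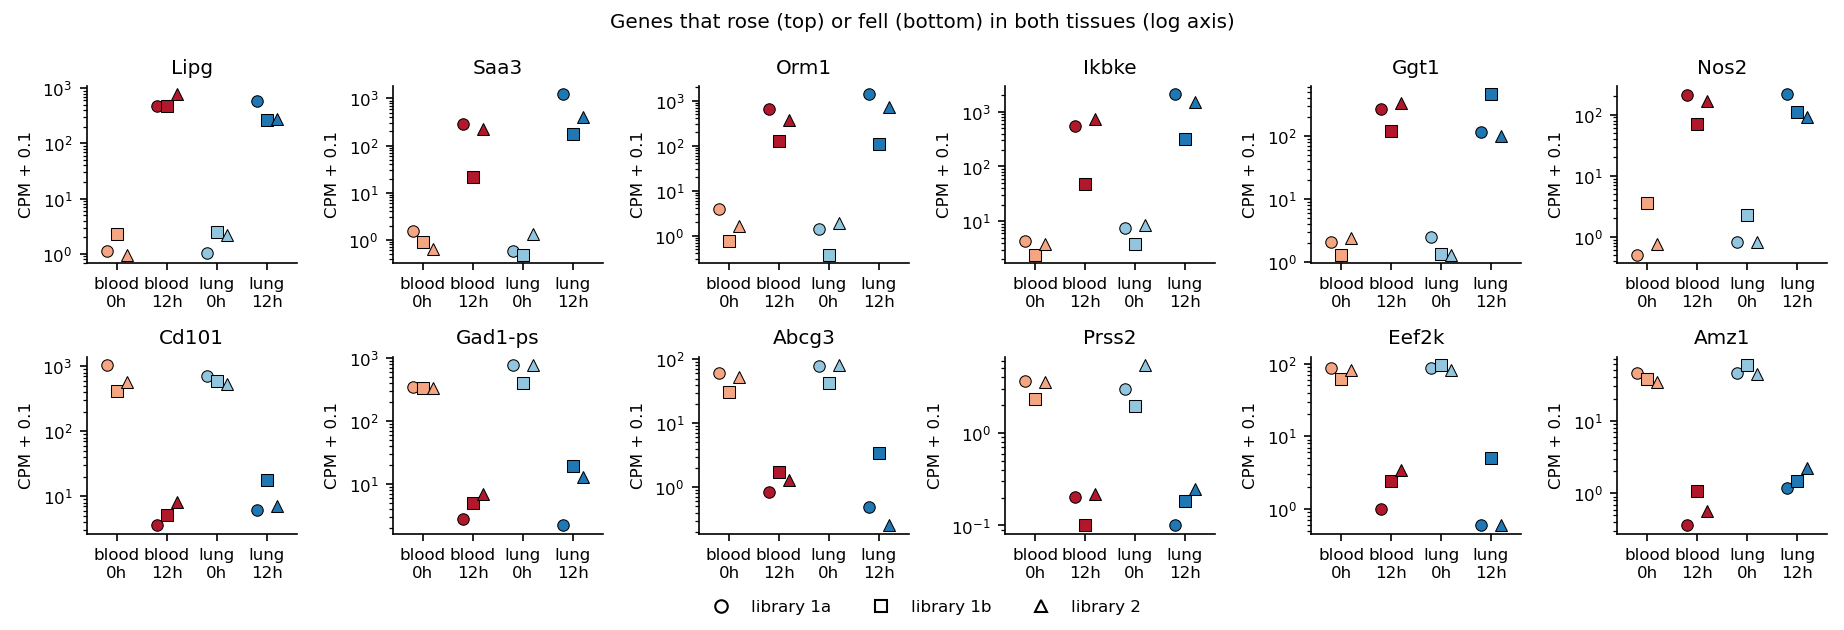
CPM + 0.1 (log axis) of the 6 genes with the largest shared rise and the 6 with the largest shared fall in each of the 12 libraries, by group; circles are libraries 1a, squares 1b and triangles 2. In every panel the 3 libraries after CLP lie on the same side of the 3 libraries at 0h at both sites.

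A shared call does not show equal size. Of the 706 shared genes, 23 had a 95% interval of the interaction wholly within 2-fold in either direction, and 62 had an unadjusted interaction p under 0.05. The median interval reached 1.29 log2 units to each side. In the fit of libraries 1a and 2 alone, 696 of the 706 were again called at both sites in the same direction, and 38 of them were called for the interaction.

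Specific granules are the second kind of granule that a maturing neutrophil fills, and their transcripts mark cells not long out of the marrow. The list used for them also holds other neutrophil genes, such as the receptor gene Ltb4r1 and the sort marker Ly6g. Of its 17 genes tested, 9 rose in the blood and 6 in the lung and none fell, next to 3.23% and 2.36% of all genes that rose, with median log2 changes of 2.98 and 2.15 against -0.93 and -0.06 over all genes. With libraries 1a and 2 alone 16 and 14 rose, next to 12.0% and 14.2% of all genes, and with the library block 15 and 13. Lcn2, the siderophore-binding lipocalin, went from 583, 296 and 457 CPM to 21278, 12424 and 17009.6 CPM in the blood. In the lung Lcn2 went from 767, 381 and 467 CPM to 25833, 14443 and 33699.8 CPM. Its interaction was 0.27 (95% interval -1.44 to 1.98). Cd177, a surface glycoprotein of neutrophils, rose by 4.47 in the blood and 3.90 in the lung. Chil3, a chitinase-like lectin, rose by 6.28 and 5.23. Ngp, the neutrophilic granule protein, held 77871, 34483 and 36953 CPM in the blood after CLP and 29315, 12028 and 24793 CPM in the lung, and it did not pass at either site in the 12 libraries (edgeR adjusted p = 0.073 and 0.062). At 0h its blood libraries spread from 25.1 to 3533 CPM. Of 18 gelatinase granule and late neutrophil genes, 2 rose and 3 fell in the blood and 2 fell in the lung, next to 2.8% and 3.27% of all genes that fell, with medians of 0.003 and 0.235. With the block 5 of these rose and 5 fell in the lung, and with libraries 1a and 2 alone 6 and 6. Of 10 azurophil granule genes 2 rose at each site, with medians of -0.43 and -0.96. The lists were not tested against each other. In the specific granule list only Ear2, an eosinophil-type ribonuclease, was called for the interaction in libraries 1a and 2, with the lung change below the blood change by a log2 of -2.86 (edgeR adjusted p = 0.023).

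Acute-phase genes followed. Of 16 tested, 6 rose in the blood and 7 in the lung, next to 3.23% and 2.36% of all genes, with medians of 2.12 and 3.34, and none was called for the interaction in either set of libraries. Hp, which encodes haptoglobin, had log2 values of 1.07 in the blood and 1.0 in the lung that did not pass (edgeR adjusted p = 0.39 and 0.49). Of 10 NADPH oxidase genes, 3 rose in the blood (3.23% of all genes) and none passed in the lung, with medians of 0.64 at both sites. With the block 2 rose in the lung (4.13% of all genes), and with libraries 1a and 2 alone 3 of 8 tested rose at each site (12.0% and 14.2% of all genes). Ncf1, a cytosolic subunit of that complex, rose by 2.00 in the blood and had 0.59 in the lung, and its interaction of -1.42 was not called.

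Interferon-stimulated genes had more falls than rises. Of 45 tested, 3 fell and 1 rose in the blood, and 5 fell in the lung, next to 2.8% and 3.27% of all genes that fell, with medians of -0.80 and -0.79 against -0.93 and -0.06 over all genes. Over the genes with a mean of at least 10 CPM the medians were 0.08 and -0.01. In libraries 1a and 2 alone 11 fell in the blood and 15 in the lung of 43 tested, next to 12.0% and 13.5% of all genes, and with the block 12 fell in the blood and 8 in the lung. The lung change was above the blood change in 23 of 45 in the 12 libraries and in 42 of 45 in libraries 1b alone. Oasl2, an oligoadenylate synthetase-like protein, held 645, 298 and 361 CPM in the blood at 0h and 101, 9.17 and 140.1 CPM after CLP. Lung libraries held 760.1, 433 and 387 CPM and then 43.9, 104 and 49.4 CPM. The fall passed in the lung and not in the blood (edgeR adjusted p = 0.049 and 0.1), and the interaction of -0.63 was not called. Slfn4, a Schlafen family gene, was the member that rose in the blood, by 1.82, while its lung value was 0.80.

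Ifit1bl1, which encodes a tetratricopeptide protein of the interferon response, fell at both sites, from 24, 7.80 and 10.4 CPM to 1.2, 0.709 and 2.63 CPM in the blood. In the lung it fell from 11.3, 6.97 and 9.75 CPM to 0.937, 1.06 and 1.31 CPM. The log2 changes were -3.22 and -3.07 (edgeR adjusted p = 0.0087 and 0.013). It was chosen after its values were seen, to show the promoter of a gene that fell at both sites. The 250 bases before its start, from RefSeq on build GRCm38.p6 at chr19:34601969-34602218 on the minus strand, hold 2 matches to the interferon response core GAAANNGAA, searched on both strands and printed in capitals:
Ifit1bl1: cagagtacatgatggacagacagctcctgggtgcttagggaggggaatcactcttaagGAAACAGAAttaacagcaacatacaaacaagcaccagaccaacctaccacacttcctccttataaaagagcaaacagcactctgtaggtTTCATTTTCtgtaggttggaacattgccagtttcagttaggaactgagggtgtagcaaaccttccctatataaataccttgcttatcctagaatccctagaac
That motif was in 24 of the 36 interferon-stimulated promoters found in the reference table (66.7%) and in 7.16% of all 27025 promoters of that length. A match of letters is a description and not a bound site.

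Genes whose change differed most between sites, by the smallest interaction p in each direction, did not pass adjustment in the 12 libraries (edgeR adjusted p = 0.876 for all 10) but were called by DESeq2, by voom with quality weights and in libraries 1a and 2 alone. Without lung library 1b after CLP edgeR called 8 of the 10, all but Cnnm2 and Abcg1. All 12 libraries took part in choosing these genes. Calls by other tools or by part of the libraries, and values in libraries 1b, are therefore no separate check. Over all genes, voom called 2607 of 23497 for the interaction, DESeq2 98, and libraries 1a and 2 alone 1167 of 15750. Fosb, a FOS family subunit of the AP-1 factor, at chr7:19302696-19310051, fell from 37.0, 11.8 and 31.2 CPM to 0.471, 0.620 and 0.598 CPM in the blood. Lung libraries went from 42.1, 44.5 and 64.0 CPM to 10.4, 8.34 and 22.5 CPM. Blood libraries after CLP lay under 1 CPM and lung libraries after CLP lay between 8.34 and 22.5, so these groups did not overlap, and blood libraries at 0h also lay below all lung libraries at 0h. The log2 changes were -5.55 ± 0.56 in the blood and -1.87 ± 0.46 in the lung, and the difference was 3.69 (95% interval 2.21 to 5.17, unadjusted p = 1.7e-04).

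Ces1d, a carboxylesterase at chr8:93166068-93197838, fell, with log2 values of -4.26 in the blood and had -1.35 in the lung (edgeR adjusted p = 0.056). After CLP its blood libraries held 0.576, 0.443 and 0.478 CPM and its lung libraries 3.80, 3.52 and 7.49 CPM. Abcg1, which exports cholesterol from cells, at chr17:31057698-31115777, went from 49.8, 60.0 and 49.1 CPM to 3.45, 3.46 and 6.16 CPM in the blood. In the lung Abcg1 went from 51.9, 64.3 and 44.5 CPM to 12.7, 20.7 and 15.6 CPM. Mylip, a ubiquitin ligase that lowers the LDL receptor, at chr13:45389742-45412019, went from 72.7, 48.2 and 72.1 CPM to 7.80, 7.84 and 8.49 CPM in the blood and from 78.3, 49.5 and 76.7 CPM to 32.3, 20.8 and 37.0 CPM in the lung. Both fell at both sites and fell less in the lung, by log2 differences of 1.89 ± 0.42 and 1.82 ± 0.41. Abcg1 and Mylip are known targets of the liver X receptors, which sense oxysterols. Cnnm2, a magnesium transport protein at chr19:46761596-46878795, differed in sign, with -1.14 in the blood, which did not pass, and a rise of 1.90 in the lung (edgeR adjusted p = 0.18 and 0.032). Its lung libraries went from 5.81, 3.13 and 5.38 CPM to 20.5, 16.7 and 16.4 CPM, and blood library 1b at 0h, at 4.91 CPM, stood apart from 18.5 and 15.6 in the others.

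In the other direction, Timm21, a subunit of the inner mitochondrial import machinery, rose from 1.42, 1.45 and 1.81 CPM to 18.6, 15.0 and 12.9 CPM in the blood. In the lung Timm21 held 2.57, 1.92 and 2.02 CPM at 0h and 2.98, 3.03 and 3.77 CPM after CLP. The blood change was 3.31 ± 0.39 and the lung value 0.58 ± 0.36, a difference of -2.72 (95% interval -3.84 to -1.60). Lars, the leucyl-tRNA synthetase, and Nt5dc1, a nucleotidase domain protein, rose in the blood by 1.30 and 1.12 and had lung values of -0.67 and -0.61 that did not pass. Zfp672, a zinc finger protein, and Ap3m1, the mu subunit of the AP-3 sorting complex, fell in the lung, with log2 values of -1.52 and -1.53 and had 0.21 and 0.23 in the blood. Lung libraries of Ap3m1 stood at 105, 84.7 and 119.9 CPM at 0h and 32.9, 35.3 and 39.1 CPM after CLP, with no overlap, while its blood groups overlapped at 75.8, 64.7 and 73.8 CPM and 93.6, 64.0 and 94.5 CPM.

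**Figure D3:**
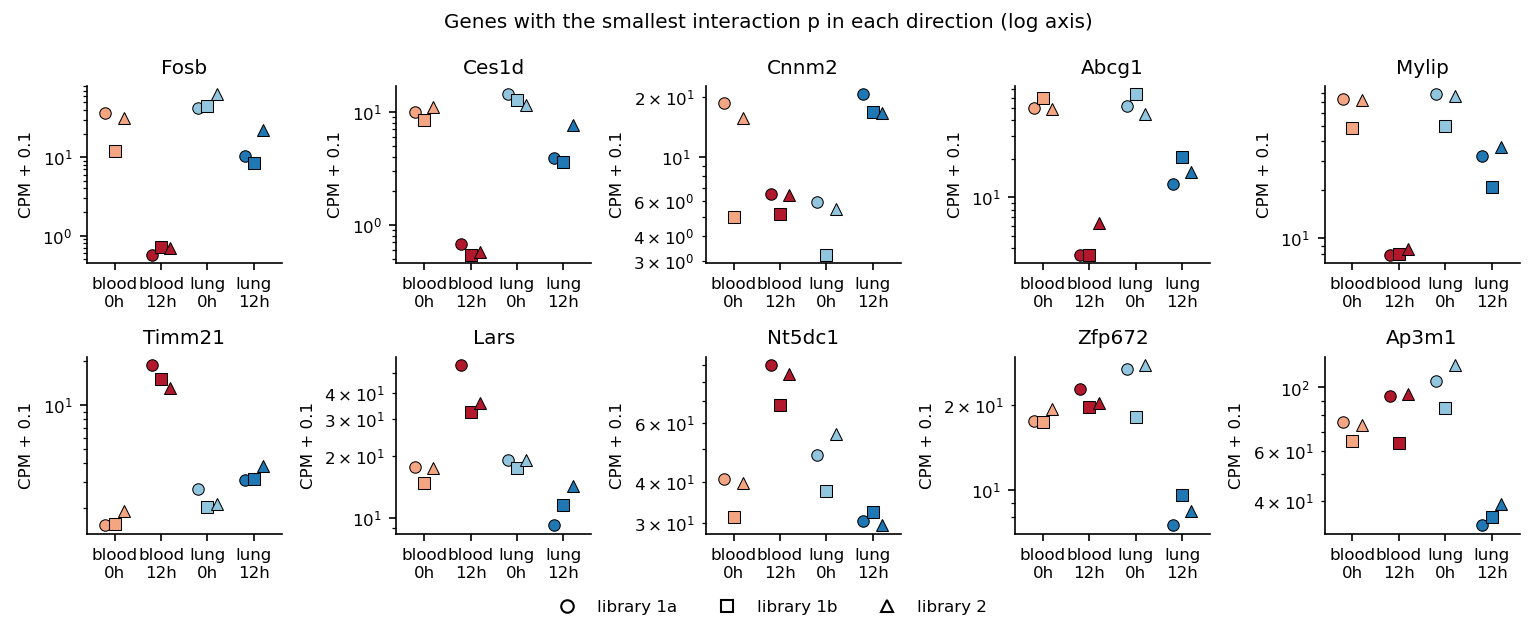
CPM + 0.1 (log axis) of the 5 genes with the smallest interaction p in each direction (upper row, lung change above blood change; lower row, below), in each of the 12 libraries; circles are libraries 1a, squares 1b and triangles 2. The genes were chosen on all 12 libraries, 1b included; blood library 1b at 0h is the lowest of its group for Cnnm2 (4.91 CPM) and Fosb (11.8 CPM).

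Leaving out the libraries 1b, an alternative added after seeing the data, changed the interaction. With libraries 1a and 2 alone, 2 per group, 3771 of 15750 genes changed in the blood (23.9%), 4371 in the lung (27.8%) and 1912 in both in the same direction (12.1%), while 99 changed in opposite directions (0.629%). The interaction called 1167 genes (7.41%), 675 with the lung change above (4.29%) and 492 below (3.12%). Of the 675, 294 rose in the lung alone, 219 fell in the blood alone, 75 rose in the lung and fell in the blood, 48 rose at both sites and more so in the lung, 13 fell at both and less so in the lung, and 26 passed at neither site. Of the 492, 246 fell in the lung alone, 146 rose in the blood alone, 24 fell in the lung and rose in the blood, 16 rose at both, 30 fell at both and 30 passed at neither. Leaving out lung library 1b after CLP alone, and keeping the other 11 libraries, called 176 genes (0.68%), 98 above (0.378%) and 78 below (0.301%), and 175 of these were among the 1167. Over those 98 genes the mean log2(CPM + 1) was 7.11 and 7.26 in lung libraries 1a and 2 after CLP and 4.06 in lung library 1b after CLP, next to 3.82 to 4.25 in the blood after CLP and 4.77 to 5.18 in the lung at 0h.

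The libraries 1b, which that fit did not use, give a view of the same contrasts with 1 library per group and hence no test. Of the 1883 genes that rose in the blood in libraries 1a and 2, 86.0% had a higher CPM in library 1b after CLP than in 1b at 0h, against 38.5% of all 15576 genes with a value there. Of the 1888 that fell in the blood, 95.1% were lower, against 61.4%. In the lung the shares were 64.5% of 2243 genes that rose, against 33.6%, and 85.6% of 2128 that fell, against 66.3%. For the interaction they were 42.4% of the 675 genes above, against 47.5% of all genes, and 58.9% of the 492 below, against 52.5%. The changes within each site thus kept their direction in libraries 1b more often than genes at large, whereas the genes with the lung change above the blood change did not.

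By adjusted p, the leading genes of the 675 were Ndrg1, Rhov, Egln2, Zfand2a, Clic4, Cdkn1a, Pdzk1ip1, Bbc3, Rgcc and Tuba1c, named after their values were seen. Cdkn1a, the cyclin-dependent kinase inhibitor p21, held 9.59, 10.4 and 25 CPM in the lung at 0h and 478, 11.1 and 1064 CPM after CLP. In the blood it held 39.6, 3.79 and 36.7 CPM and then 13.8, 7.89 and 15.9 CPM. Lung library 1b after CLP lay with the lung libraries at 0h, far below the other 2 of its group. Its interaction was 6.96 in libraries 1a and 2 (edgeR adjusted p = 0.0057) and 6.21 ± 1.68 in the 12 libraries, and it was among the calls of DESeq2 (adjusted p = 0.0047). Bbc3, which encodes the death-promoting BH3 protein PUMA, went from 10.7, 11.2 and 8.91 CPM to 32.0, 3.11 and 36.8 CPM in the lung and from 17.2, 14.1 and 18.7 CPM to 6.49, 4.03 and 4.67 CPM in the blood. Egln2, a prolyl hydroxylase that marks hypoxia-inducible factors for decay, held 436, 35.6 and 488 CPM in the lung after CLP, against 41.6, 28.8 and 41.6 CPM at 0h. Ndrg1, a stress and hypoxia response gene, fell in the blood from 172, 102 and 217 CPM to 23.3, 12.9 and 20.6 CPM, and in the lung after CLP held 243, 23.7 and 238 CPM.

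Leading genes of the 492 were H2-T24, Cd200r1, Ptgr2, Cmah, Rp2, Klra17, Clec12a, Pctp, Rgs18 and Mis12. Clec12a, an inhibitory lectin receptor for uric acid crystals, went from 329.8, 137 and 325 CPM in the lung at 0h to 22.4, 96.8 and 26.6 CPM after CLP, and from 267, 111 and 246 CPM to 294, 67.4 and 176 CPM in the blood. Cd200r1, another inhibitory receptor, held 4.02, 28.0 and 3.67 CPM in the lung after CLP against 42.7, 14.0 and 39.8 CPM at 0h. Cmah, which hydroxylates sialic acid, went in blood libraries 1a and 2 from 24.8 and 26.0 to 222 and 193 CPM, whereas the lung libraries after CLP held 15.2, 150.1 and 16.4 CPM, of which 1b lay within the range of the blood after CLP. In the 12 libraries none of the 10 passed in the lung except Pctp, a phosphatidylcholine transfer protein, which fell, with log2 values of -2.37 in the blood and -4.13 in the lung (edgeR adjusted p = 0.047 and 0.0069).

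Immediate early genes encode transcription factors and RNA-binding proteins that are switched on within minutes of a stimulus. All 23 genes of the list were tested, and all 23 had the lung change above the blood change in the 12 libraries (22 of 23 with the library block), with a median difference of 2.09 against 0.56 over all genes. In the blood 5 fell and none rose, and in the lung 2 rose and 1 fell, next to 2.8% of all genes that fell in the blood, 2.36% that rose in the lung and 3.27% that fell there, with medians of -1.29 and 0.56. With the block, 8 fell in the blood and 3 rose in the lung. No member was called for the interaction by edgeR in the 12 libraries, 6 were by DESeq2, and 21 were in libraries 1a and 2 alone, where 4.29% of all genes were called above. In the libraries 1b alone 9 of 23 had the lung change above, with a median of -0.53, and 8 of the 21 kept their direction. Fos, a subunit of AP-1, went from 5299, 2151 and 4268 CPM to 362, 245 and 525 CPM in the blood. In the lung Fos went from 4374, 5059 and 3681 CPM to 2092, 1451 and 3118 CPM. The blood fall of -3.37 passed and the lung value of -0.98 did not (edgeR adjusted p = 0.004 and 0.37), and the interaction was 2.40 ± 0.70, called by DESeq2 (adjusted p = 2.6e-04).

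Junb, a JUN partner of FOS, fell, with log2 values of -2.32 in the blood (edgeR adjusted p = 0.041), and its lung libraries after CLP held 4072, 1026 and 4868 CPM against 3381, 3173 and 3583 CPM at 0h. Fosl1, another FOS family member, went from 1.32, 1.32 and 4.54 CPM to 369.8, 7.04 and 262 CPM in the lung, where it rose by 6.47 (edgeR adjusted p = 0.013). In the blood it held 3.91, 0.669 and 2.29 CPM and 10.6, 7.35 and 6.52 CPM. Nr4a1, an orphan nuclear receptor, held 4546, 160.2 and 5790.4 CPM in the lung after CLP and 222, 522 and 642 CPM at 0h, and it passed at neither site in the 12 libraries. Zfp36, the RNA-binding protein tristetraprolin that shortens the life of cytokine transcripts, held 5239.7, 709 and 4975 CPM in the lung after CLP and 1045, 659 and 1015 CPM in the blood. In each of these genes lung library 1b after CLP was the low one of its group.

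The dual specificity phosphatases, which switch off MAP kinases, had few calls. Of 10 tested, 2 fell in the blood (2.8% of all genes), and 1 rose and 1 fell in the lung (2.36% and 3.27%). With the block 1 rose and 3 fell in the blood and 2 rose and 2 fell in the lung. All 10 had the lung change above in the 12 libraries, with a median difference of 2.34 against 0.56 over all genes, and 4 of 10 in libraries 1b alone, with a median of -0.03. Libraries 1a and 2 alone called 5 of them above for the interaction (4.29% of all genes), of which 3 kept their direction in libraries 1b. Dusp1 held 15169, 3009.8 and 10389.8 CPM in the blood at 0h and 2473, 1248 and 2550.2 CPM after CLP. Lung levels of Dusp1 were 14674, 8250.3 and 12735 CPM and 15569.7, 3928 and 23066 CPM. Dusp5, an ERK phosphatase of the nucleus, held 541, 55.4 and 959.5 CPM in the lung after CLP, 42.6, 84.9 and 117 CPM at 0h, and 13.4, 11.1 and 13.2 CPM in the blood after CLP, where its 3 libraries lay close together. Its interaction was 4.49 ± 1.08 in the 12 libraries, and DESeq2 called it (adjusted p = 0.0016). Dusp6, an ERK phosphatase of the cytoplasm, fell at both sites, with log2 values of -2.95 and -2.61 and differed by 0.34 (95% interval -0.94 to 1.62).

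Ppp1r15a, also called GADD34, which restores translation after stress, was one of the 75 genes that rose in the lung and fell in the blood in libraries 1a and 2. It went from 891, 132 and 520.1 CPM to 42.9, 45.0 and 74.2 CPM in the blood. In the lung it went from 344, 308 and 646 CPM to 1548, 50.6 and 3241 CPM. The interaction was 5.15 ± 1.5 in the 12 libraries and was called by DESeq2 (adjusted p = 0.014). Cebpb, a factor of emergency granulopoiesis, was another, with 67.3, 931 and 449.6 CPM in the lung at 0h, 2912, 1386 and 4029 CPM after CLP and 26.6, 359 and 33.8 CPM in the blood after CLP. In libraries 1b Cebpb was high in all 4 groups, from 359 to 1386 CPM. Dusp2, a nuclear MAP kinase phosphatase, was in the same class and held 448, 49.0 and 989 CPM in the lung after CLP. Of the 24 genes that fell in the lung and rose in the blood, Rp2, a GTPase activator of the cilium, had 1.44 in the blood and -1.45 in the lung in libraries 1a and 2 (edgeR adjusted p = 0.0022 and 0.0016), and in the 12 libraries neither passed.

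Promoters of 3 of these stress-response genes are shown because they hold sites named for factors that act within minutes of a signal. The CArG box binds serum response factor, and the cyclic AMP response element (CRE, TGACGTCA) binds CREB and ATF factors. The sequences are the 250 bases before the start in RefSeq on build GRCm38.p6, with matches on either strand in capitals. Dusp5 holds 2 adjoining CArG boxes, 82 to 73 and 72 to 63 bases before the start, at chr19:53528895-53529144 on the plus strand. Dusp1 holds a CRE 143 to 136 bases before the start, at chr17:26508473-26508722 on the minus strand. Ppp1r15a holds one 12 to 5 bases before the start, at chr7:45526269-45526518 on the minus strand.
Dusp5: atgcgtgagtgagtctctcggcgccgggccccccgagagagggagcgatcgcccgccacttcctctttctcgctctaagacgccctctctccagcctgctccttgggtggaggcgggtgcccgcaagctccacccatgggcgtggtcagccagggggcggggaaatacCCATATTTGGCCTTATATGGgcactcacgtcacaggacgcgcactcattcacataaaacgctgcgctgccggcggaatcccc
Dusp1: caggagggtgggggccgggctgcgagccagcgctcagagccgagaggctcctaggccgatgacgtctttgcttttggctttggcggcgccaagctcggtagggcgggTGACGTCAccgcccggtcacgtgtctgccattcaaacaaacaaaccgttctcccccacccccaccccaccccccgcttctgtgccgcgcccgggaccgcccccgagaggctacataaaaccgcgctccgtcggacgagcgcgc
Ppp1r15a: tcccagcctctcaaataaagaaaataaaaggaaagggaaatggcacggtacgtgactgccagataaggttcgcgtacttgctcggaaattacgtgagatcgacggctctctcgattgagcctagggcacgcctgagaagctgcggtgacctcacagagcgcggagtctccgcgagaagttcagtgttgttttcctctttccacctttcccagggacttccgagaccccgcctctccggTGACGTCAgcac
Of 9 phosphatase promoters found in the reference table, 2 hold the CRE and 1 a CArG box, and of 19 immediate early promoters 1 holds each, while 1.62% and 1.4% of all 27025 promoters hold them. Many elements of these genes lie outside such short windows, and nothing is drawn from a missing match.

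NF-kB subunits and their feedback inhibitors included more calls in the lung, a difference in counts that was not tested. Of 20 genes, 1 rose and 1 fell in the blood while 8 rose in the lung, next to 3.23%, 2.8% and 2.36% of all genes, with medians of 0.96 and 2.40. The lung change was above in 19 of 20 in the 12 libraries and in 10 of 20 in libraries 1b alone, with a median of -0.003 there. With the block, 5 rose in the blood and 12 in the lung. Libraries 1a and 2 alone called 8 above for the interaction (4.29% of all genes), of which 2 kept their direction in libraries 1b. Nfkbia, which encodes the inhibitor IkB alpha, held 7297, 847 and 9464 CPM in the lung after CLP and 2221, 724 and 1621 CPM in the blood, from 757, 859 and 1047 CPM and 835, 161 and 596 CPM. Tnfaip3, the ubiquitin-editing enzyme A20, held 5165, 134 and 2756 CPM in the lung after CLP and 128, 324 and 375 CPM at 0h. Tnip1, a partner of A20, rose in the lung by 3.85 (edgeR adjusted p = 0.0074) and had 1.91 in the blood. Tnfaip2, induced by TNF, fell in the blood, with log2 values of -2.38 and had -0.81 in the lung.

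Targets of p53 and cell cycle brakes had 1 member that rose and 1 that fell in the blood and 3 that rose in the lung, of 25, next to 3.23%, 2.8% and 2.36% of all genes. With the block 2 rose and 4 fell in the blood, and 6 rose and 1 fell in the lung. The lung change was above in 22 of 25 in the 12 libraries, with a median difference of 0.78 against 0.56 over all genes. In libraries 1b alone it was above in 9 of 25, with a median of -0.34. Libraries 1a and 2 alone called 11 above and 1 below (4.29% and 3.12% of all genes), of which 3 kept their direction in libraries 1b. Btg1, an antiproliferative gene high in resting neutrophils, fell in the blood from 3176, 1342 and 2346 CPM to 296, 215 and 406 CPM. In the lung Btg1 held 3429, 2166 and 3175 CPM and 2391, 483 and 2385 CPM, and library 1b after CLP was the low value. Plk3, a stress-response kinase, held 2128, 90.7 and 3177 CPM in the lung after CLP and 76.5, 96.6 and 56.2 CPM in the blood. Ccng1, cyclin G1, was the member below, with -1.26 in libraries 1a and 2.

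Among cytokines, Il1b, which encodes interleukin-1 beta, went from 5571, 2799 and 5447 CPM to 326, 394 and 1058 CPM in the blood. In the lung it went from 6747, 6548 and 10620.2 CPM to 10916, 1469 and 17153 CPM. Its interaction of 3.26 ± 1.12 was called by DESeq2 (adjusted p = 0.032) and in libraries 1a and 2, and it was the only one of 15 interleukin-1 family genes called there, next to 4.29% of all genes called above. Tnf rose in the lung by 4.55 (edgeR adjusted p = 0.017) and had 2.56 in the blood. Of 16 TNF family genes tested there, 5 were called above in libraries 1a and 2, next to the same 4.29% (3 of them with the same direction in libraries 1b), among them the receptor Tnfrsf1a, which DESeq2 also called (adjusted p = 8.2e-04). Cxcl2, a chemokine that draws neutrophils, held 18590.5, 1692 and 18734 CPM in the lung after CLP and 1342, 1313 and 2560.4 CPM in the blood, and rose in the lung by 3.26 (edgeR adjusted p = 0.045). Ccl6, another chemokine, fell at both sites, with log2 values of -3.77 and -3.74, with an interaction of 0.03 (95% interval -1.61 to 1.67).

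Of 20 genes that curb inflammation or T cells, 5 rose in the blood and 7 in the lung, and 1 fell in the blood, next to 3.23%, 2.36% and 2.8% of all genes. With the block 9 rose and 3 fell in the blood and 8 rose in the lung. Wfdc21, which encodes a secreted whey acidic protein domain protein, rose by 4.03 and 3.57. Ptgs2, the inducible cyclooxygenase, fell in the blood from 1226, 231 and 978 CPM to 9.26, 13 and 33.9 CPM (edgeR adjusted p = 0.015). In the lung Ptgs2 held 703, 900.4 and 1898 CPM and 773, 61.6 and 1331 CPM. DESeq2 called its interaction of 4.75 (adjusted p = 0.012). Cd274, the checkpoint ligand PD-L1, held 1868, 19.7 and 781 CPM in the lung after CLP, with library 1b far below the others. Adora2a, the adenosine receptor that dampens neutrophils, rose in the lung by 8.02 (edgeR adjusted p = 0.0099). Libraries 1a and 2 alone called 5 of 19 above for the interaction (4.29% of all genes), and 2 of the 5 kept their direction in libraries 1b.

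Further lists had interaction calls in libraries 1a and 2, where 4.29% of all genes were called above and 3.12% below. Of those calls, the same direction was seen in libraries 1b for 2 of 7 in the STAT3 and SOCS list, 4 of 7 in the NRF2 list, 2 of 5 glucocorticoid receptor targets, 0 of 5 clock genes, 4 of 6 in the BCL-2 family and 3 of 5 in the inflammasome list. In the STAT3 and SOCS list these were 7 of 28, with Socs3, a feedback inhibitor of cytokine signalling, at 2.80 and Il10ra, the interleukin-10 receptor, at 3.45, each on the log2 scale. NRF2, heme and ferritin genes had 6 above and 1 below of 19, and in the 12 libraries 6 of 20 rose and 1 fell in the lung and 2 rose and 1 fell in the blood, next to 2.36%, 3.27%, 3.23% and 2.8% of all genes. With the block 8 rose in the lung and 4 in the blood. Slc7a11, the cystine carrier, held 3898, 115 and 3556 CPM in the lung after CLP. G6pdx, the first enzyme of the pentose phosphate pathway, was the member below, with a rise of 2.75 in the blood and a lung value of 1.12 that did not pass. Glucocorticoid receptor targets had 5 of 18, among them Klf9, which rose at both sites by 2.87 and 4.83. The metallothionein Mt1 held 846, 8.02 and 431 CPM in the lung after CLP and 34.3, 61.1 and 44.6 CPM in the blood, so that library 1b was lowest of its lung group and highest of its blood group. Clock genes had 5 of 17, among them Per1 and Nfil3, and time of day was not given in the labels. BCL-2 family genes had 5 above, among them the survival gene Mcl1 and the death-promoting Bcl2l11, and 1 below, Xiap. In the inflammasome list 5 of 19 were called above, with Nlrp3 at 12.7, 13.9 and 47.3 CPM in the blood after CLP and 663, 32.7 and 724 CPM in the lung.

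No interaction call was made, by edgeR in the 12 libraries or in libraries 1a and 2 or by DESeq2, among 59 ribosomal protein genes, whose median changes were 0.09 and -0.10, or among the NADPH oxidase, azurophil granule and MHC class II genes. Of 21 Toll-like receptors and endotoxin sensors, 4 rose and 2 fell in the blood, and 4 rose and 3 fell in the lung, next to 3.23% and 2.8% of all genes in the blood and 2.36% and 3.27% in the lung. Cd14, the endotoxin co-receptor, rose in the lung by 4.85 and had 3.37 in the blood (edgeR adjusted p = 0.017 and 0.053). Of 14 chemokine receptors, 4 fell in the blood and 3 in the lung (2.8% and 3.27% of all genes). Cxcr2, the receptor through which neutrophils leave the marrow, passed at neither site, with -0.42 in the blood and -1.44 in the lung. Csf3r, the G-CSF receptor, fell in the blood, with log2 values of -2.62 and had -1.97 in the lung (edgeR adjusted p = 0.019 and 0.062).

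Mitochondrially encoded proteins showed the reverse order, and this list was added after the data were seen. Of 13 genes, 6 rose in the blood and none passed in the lung, next to 3.23% of all genes that rose in the blood, with medians of 1.99 and -0.06, and 12 of 13 had the lung change below the blood change. Libraries 1a and 2 alone called 9 of 12 below (3.12% of all genes), and all 9 kept their direction in libraries 1b, where the median difference was -0.77. The cytochrome b gene mt-Cytb held 52.7, 88.4 and 83.4 CPM in the blood at 0h and 429, 203 and 343 CPM after CLP. In the lung it held 534, 579 and 427 CPM and 447, 255 and 484 CPM. Blood libraries at 0h were thus the low group, and the other 3 groups overlapped. Its interaction of -2.50 ± 0.54 (unadjusted p = 6.3e-04) was called by DESeq2 (adjusted p = 1.4e-04). Mitochondrial genes took 0.029% to 0.082% of counts in the blood at 0h, 0.11% to 0.16% after CLP and 0.13% to 0.27% in the lung. Nuclear-encoded genes of oxidative phosphorylation leaned the same way: 9 of 50 rose in the blood and 1 in the lung (3.23% and 2.36% of all genes), with medians of 0.58 and 0.07, and 45 had the lung change below. Ndufb3, a complex I subunit, rose in the blood by 1.32 and had 0.08 in the lung, and was 1 of 2 of the 50 that libraries 1a and 2 alone called below for the interaction (3.12% of all genes).

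**Figure D4:**
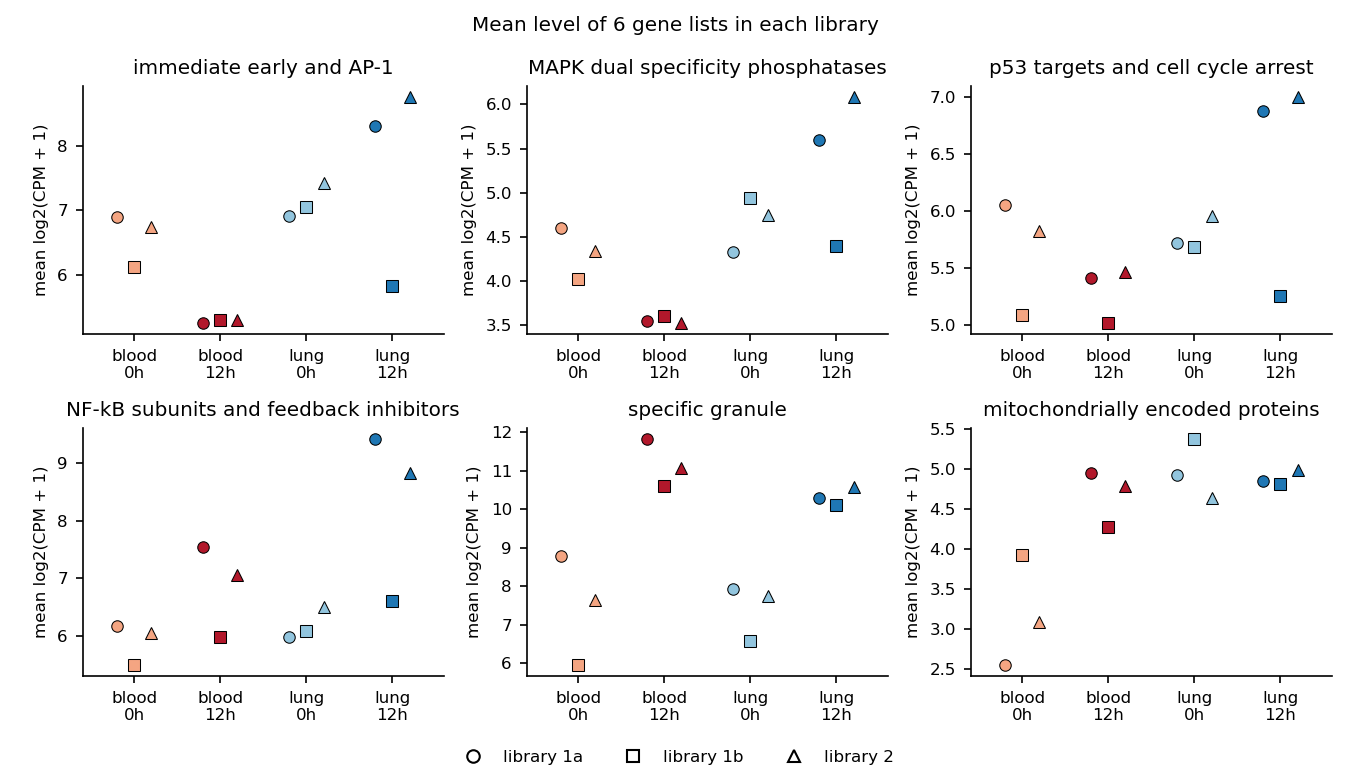
Mean log2(CPM + 1) of 6 gene lists (y axes) in each library, by group; circles are libraries 1a, squares 1b and triangles 2. For immediate early genes the lung libraries 1a and 2 after CLP stand at the top and library 1b after CLP, at 5.83, stands near the blood after CLP at 5.27 to 5.31; specific granule genes are high in all 6 libraries after CLP.

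**Figure D5:**
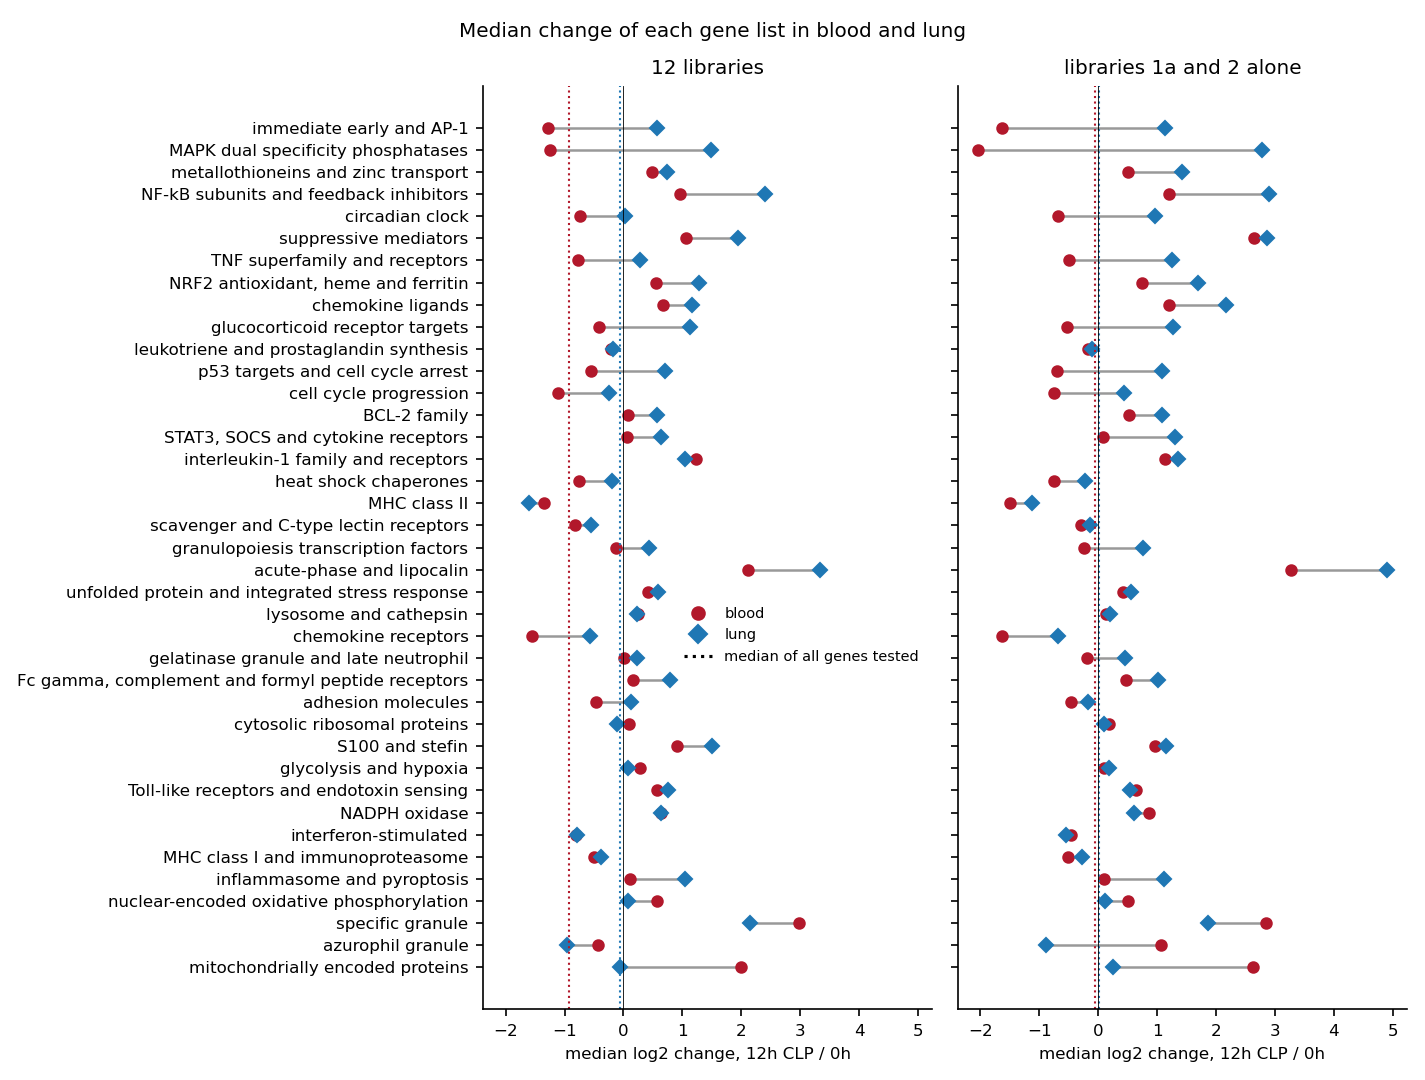
Median log2 change after CLP (x axis) of the pathway lists (rows) in blood (circles) and lung (diamonds), in the fit of 12 libraries (left) and of libraries 1a and 2 alone (right); dotted lines are medians over all genes tested. The lists are ordered by the median interaction of libraries 1a and 2 alone. In the 12 libraries the lung median lies above the blood median for the phosphatases (1.49 and -1.24) and below it for the mitochondrially encoded proteins (-0.06 and 1.99).

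Markers of cells that a sort can carry along moved with time and site. Neutrophil markers, 10 genes, summed to 36215 to 46444 CPM in the blood at 0h, 102841 to 192665 after CLP, 40530.0 to 52406 in the lung at 0h and 73991 to 145709 after CLP. Platelet markers, 14 genes, summed to 122 to 288 CPM in the blood at 0h, 23.7 to 61.2 after CLP, 63.3 to 76.7 in the lung at 0h and 30.7 to 85.1 after CLP. Of these, 6 fell in the blood (10 with the block) and 1 in the lung, next to 2.8% and 3.27% of all genes, and 4 were called for the interaction with the lung change above in libraries 1a and 2 (4.29% of all genes), all 4 in the same direction in libraries 1b. B cell markers, 14 genes, summed to 350 to 1264 CPM in the blood at 0h, 39.2 to 260.3 after CLP, 502 to 818 in the lung at 0h and 28.7 to 96.7 after CLP, with 2 falls in the blood and 5 in the lung (2.8% and 3.27% of all genes). Lung structural markers, 24 genes, summed to 137 to 480 CPM in the blood at 0h, 83.0 to 110.3 after CLP, 245 to 507 in the lung at 0h and 259 to 567 after CLP. By gene, 2 fell and 1 rose in the blood and 1 rose in the lung (2.8%, 3.23% and 2.36% of all genes), with 5 blood falls in the block fit (6.23%). Their medians were -2.59 in the blood and -0.11 in the lung. The lung change was above in 22 of 24, with a median difference of 2.20, and in 12 of 24 in libraries 1b alone. Monocyte, macrophage and dendritic markers, 20 genes, summed to between 600.3 and 1693 CPM in all groups. By gene, 3 fell and 1 rose in the blood, and 2 fell and 1 rose in the lung (2.8%, 3.23%, 3.27% and 2.36% of all genes). With the block 6 fell and 1 rose in the blood, and 4 fell and 2 rose in the lung (6.23%, 5.6%, 5.32% and 4.13%). Their median log2 changes were -1.59 in the blood and -0.79 in the lung. T and NK cell markers, 17 genes, summed to 31.3 to 43.1 CPM in the blood at 0h, 14.5 to 20.0 after CLP, 23.6 to 32.4 in the lung at 0h and 14.1 to 19.0 after CLP, and 0 of the 16 tested passed at either site by edgeR (4 in the blood and 2 in the lung at an unadjusted p under 0.05), while DESeq2 called 3 falls in the blood and 1 in the lung. Eosinophil, basophil and mast cell markers, 16 genes, summed to 69.2 to 73.8 CPM in the blood at 0h, 16.6 to 19.6 after CLP, 78.8 to 128 in the lung at 0h and 17.95 to 47.3 after CLP, with 2 falls among 11 tested at each site (2.8% and 3.27% of all genes). With the block 2 rose and 5 fell in the blood (5.6% and 6.23% of all genes). The 11 had median log2 changes of -3.07 in the blood and 0.47 in the lung. The T and NK cell sums and the eosinophil, basophil and mast cell sums were lower in every library after CLP than in any at 0h of the same site. Erythroid markers ran from 97.4 to 3661 CPM with overlap between all groups. Their part in the results was not tested. In such pooled cells, fewer cells of a type and less RNA per cell cannot be told apart.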

How the data were processed

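RNA of sorted WT neutrophils was sequenced from Nextera XT libraries. Per the submitters' processing notes, the authors trimmed reads with Trimmomatic 0.36, aligned them with STAR 2.5.2b to GRCm38/mm10 and deposited raw counts per gene for 49315 genes; the read counter and its use of strand are not given in the sources used here, so overlapping genes and near-identical copies are uncertain. Counts of the 12 libraries were fitted together, unscaled and unrounded, with edgeR 4.0.16 in R 4.3.3 (TMM scaling, filterByExpr, quasi-likelihood F test, two-sided, Benjamini-Hochberg adjustment over 23497 genes). A gene was called at an adjusted p under 0.05 and an absolute log2 value over 1. Contrasts were 12h CLP minus 0h in blood, the same in lung, and the lung change minus the blood change. CPM values use TMM-scaled library sizes and are comparable within a gene, not between genes. Totals of 5753476 to 29433699 counts limit precision for genes under about 1 CPM.

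Each library was entered as a replicate, after the study's triplicates, although the labels give 2 samples per group. Libraries 1a and 1b of a sample differed beyond counting noise (chi-square of 78.5 to 328.5 per degree of freedom), which shows that they are not the same library and not that they are separate samples, so the fit with both summed is given beside the main counts. Same-numbered libraries deviated together in every pair of groups (correlations of 0.331 to 0.856). These deviations were taken from the mean of 3 libraries, so the split of libraries 1b from the rest enters each of them. Libraries of different numbers were not compared, so the correlations do not show a pairing of libraries 1a or of libraries 2. The number was used as a block for comparison, and that fit is given beside many of the counts that it moved by over 1.5 times. Alternatives were DESeq2 1.42.0, limma 3.58.1 voom with quality weights, RLE scaling, other count filters, all 8 groups in 1 fit, summed files of sample 1, each library left out, and, chosen after seeing the data, libraries 1a and 2 alone.

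Named genes were the 5 of smallest interaction p in each direction and the 6 shared genes that rose and the 6 that fell with the largest smaller change; others are list members (the 3 of highest mean CPM and those called for the interaction) or are said to be chosen after their values were seen. The members and the 46 lists of 904 genes were chosen with earlier results of these data known. The fits were tested on simulated data. With 3 libraries against 3, an exact permutation test cannot go below p = 0.1, so none was used. Promoters and their motifs come from RefSeq (GRCm38.p6).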

Additional observations from a re-analysis of the deposited data

Results flagged for a closer look

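The interaction test, which asks whether the change in the lung differs from that in the blood, was passed by 1167 genes with edgeR when libraries 1a and 2 of each group were used alone, and by 98 genes with DESeq2 on all 12 libraries. Both are listed because the test is of the difference itself, while edgeR on the 12 libraries called 0 genes (1290, or 5.49%, at an unadjusted p under 0.05). Of the 98 genes, 77 were among the 1167. DESeq2 on libraries 1a and 2 called 1161 of the 1167. No group held 4 or more libraries, so single libraries were not tested for distance from their group.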

How the results depend on the processing

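The main counts were 1416 genes called in the blood, 1324 in the lung, 706 shared (called in the same direction at both sites and not called for the interaction, here and in each count of this paragraph), 0 opposite and 0 for the interaction, with a correlation of 0.20. DESeq2 gave 3092, 2862, 1599, 6 and 98 with a correlation of 0.17. Voom with quality weights gave 5353, 5446, 2227, 122 and 2607 with 0.39. Libraries 1a and 2 alone gave 3771, 4371, 1805, 99 and 1167 with a correlation of 0.50 by edgeR, and 4187, 4685, 1864, 129 and 2258 with 0.51 by DESeq2. A minimum of 10 counts in every library gave 2266, 2201, 1257, 4 and 0 with a correlation of 0.72, and no filter gave 850, 842, 438, 0 and 4 with a correlation of 0.044. All 8 groups in 1 fit gave 447 in the lung and 198 shared with a correlation of 0.16, and summing the files of sample 1 gave 1626, 1762, 847, 1 and 0 with a correlation of 0.30. With the library number as a replicate block, 2780, 2221 and 1312 genes were called in the blood, the lung and both, and it changed no call of the interaction. Leaving out 1 library at a time gave 158 to 2227 in the blood, 49 to 2483 in the lung, 47 to 1083 shared, 0 to 18 opposite, 0 to 176 for the interaction and correlations of -0.36 to 0.64. Blood calls fell to 223, 158 and 228 without blood libraries 1a at 0h, 1a after CLP and 2 after CLP. Lung calls fell to 49, 80 and 136 without lung libraries 2 at 0h, 1a after CLP and 2 after CLP. The fit without lung library 1b after CLP, of the same size, gave 2227 in the blood and 2483 in the lung. What lowered the counts was not tested. Of the named genes' changes within a site, 489 values under alternatives kept their side of the threshold and 27 lost it; of the interaction values, 170 kept it and 48 passed only under the alternative. None changed sign. Depth limits genes under 1 CPM most.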
